A study of Mus musculus with 4 samples.

Results

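The genes of meiotic recombination examined here were Hormad1, Hormad2, Spo11, Mei1, Dmc1, Mcmdc2, Msh4 and Msh5, which are 8 of the 21878 genes in the mRNA values. They were chosen by name, and the values of all 60 of their transcripts, out of 75959 listed, were summed per gene. The circRNAs with one of these genes as host were added, which gave 2 of 4295 circRNAs, both from Mcmdc2. RNA came from C3H10T1/2, a mouse mesenchymal stem cell line. The untreated group held replicates 1 and 2. The other group, replicates 101 and 102, received 5-AZA (5-azacytidine, which resembles cytidine and, once built into DNA, reduces its methylation) at 20 µM for 72 hours and was then kept in fresh medium for 21 days. The labels give the untreated group no time in culture, so treatment and time in culture cannot be told apart. The labels do not say whether replicates were separate cultures, and the p-values measure only the spread between these samples. With 2 samples against 2, an exact two-sided permutation test cannot go below p = 0.333.

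In meiosis, SPO11 cuts both DNA strands with the help of partners such as MEI1 and REC114, and the HORMA domain proteins HORMAD1 and HORMAD2 sit on the chromosome axes where the breaks form. The recombinase DMC1 then pairs a broken end with the homologous chromosome, MCMDC2 is needed for this repair, and the MSH4 and MSH5 pair holds the joined molecules that become crossovers. These genes are known for their use in germ cells, and most somatic cells, mesenchymal cells included, keep little or none of their mRNA.

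After 5-AZA, 2 of the 8 genes, Hormad1 and Mcmdc2, passed the test, and both were higher. A gene was called where the limma adjusted p was below 0.05 and the change was over 2-fold, after a limit of 0.1 FPKM on the mean of the 4 samples. FPKM is the number of fragments scaled to transcript length and to the fragments sequenced. Of the 13199 genes tested, 13.1% were called higher and 1.32% lower. Quantile normalization moved the split over all genes from 1724 higher and 174 lower to 1041 higher and 886 lower, and the median log2 difference from 0.05 to -0.12, with Hormad1 and Mcmdc2 still called higher. Hormad1 and Mcmdc2 passed the limit only through their 5-AZA values, Msh4 and Msh5 passed it and were not called, and Hormad2, Spo11, Mei1 and Dmc1 stayed below it and were not tested. Both 5-AZA values lay above both untreated values in Hormad1, Mcmdc2 and Msh5, and in 36.8% of all genes tested. Log2 differences were taken on log2(FPKM + 0.1), which understates the change of low genes. In these bulk samples, a change in the number of cells that hold an mRNA and a change in its amount per cell cannot be told apart.

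In the 5-AZA samples, levels in FPKM followed the order Mcmdc2, Hormad1, Msh5 and Msh4, with no overlap between neighbours in that order. The ranges of Hormad2, Mei1 and Dmc1 overlapped one another, and Spo11 was listed at 0. In the untreated samples Msh5 was the highest in both replicates, and Msh4 lay below it. The ranges of Msh4 and Mcmdc2 overlapped there, as did those of Mcmdc2, Hormad1 and Dmc1, and Hormad2, Mei1 and Spo11 were listed at 0.

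**Figure D1:**
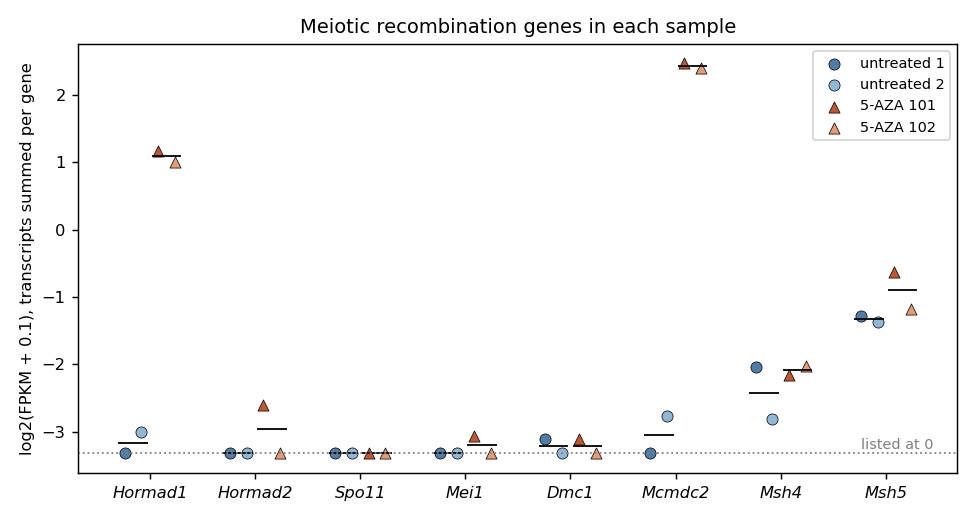
The level of each gene in each sample is plotted as log2(FPKM + 0.1), with circles for untreated samples, triangles for 5-AZA samples and a short line at the mean of the 2 log2 values of each group. Hormad1 and Mcmdc2 stand well apart between the groups, while the untreated and 5-AZA points of Msh4 overlap and those of Hormad2, Spo11, Mei1 and Dmc1 lie at or near the line for 0.

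Among the axis proteins, Hormad1 lies at chr3:95559677-95587863 in the GRCm38.p6 annotation. It was listed at 0 in untreated replicate 1 and at 0.0243 FPKM in untreated replicate 2, against 2.15 and 1.90 FPKM in 5-AZA replicates 101 and 102. The groups did not overlap, and both 5-AZA samples were far above both untreated samples. The mean was 0.0121 ± 0.0172 FPKM (SD, n = 2) in untreated and 2.02 ± 0.176 FPKM (SD, n = 2) in 5-AZA samples. The log2 difference was 4.25 (SE 0.32, limma adjusted p = 2.47e-05), which placed Hormad1 at rank 234 of the 13199 genes when ordered by this difference. Hormad2, its relative on the axes of unpaired chromosomes, lies at chr11:4345801-4441198. It was listed at 0 in 3 samples and at 0.0652 FPKM in 5-AZA replicate 101. That single value was spread over 6 of its 7 transcripts, and no difference between the groups was detectable at these levels.

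Of the 6 Hormad1 transcripts, 3 reached 0.1 FPKM in any sample. NM_001289532.1 held most of the gene's level, with 0 and 0.00429 FPKM in the untreated samples and 1.48 and 1.53 FPKM in the 5-AZA samples. This transcript accounted for 68.7% and 80.5% of the Hormad1 sum in 5-AZA replicates 101 and 102. Tested among single transcripts, of which 2.1% were called higher, NM_001289532.1 was called, with a log2 difference of 3.97 (SE 0.59, limma adjusted p = 0.0358). XM_006501954.3 was at 0.235 and 0.345 FPKM in the 5-AZA samples and below 0.1 FPKM in the untreated samples (log2 difference 1.92, limma adjusted p = 0.230). The 5-AZA replicates differed for NM_001289537.1, at 0.437 FPKM in replicate 101 and 0.00194 FPKM in replicate 102. This transcript held 20.3% of the Hormad1 sum in replicate 101, and its log2 difference of 1.19 did not pass the test (limma adjusted p = 0.603). The summed level of the gene was thus steadier between the 5-AZA replicates than the share of its transcripts.

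**Figure D2:**
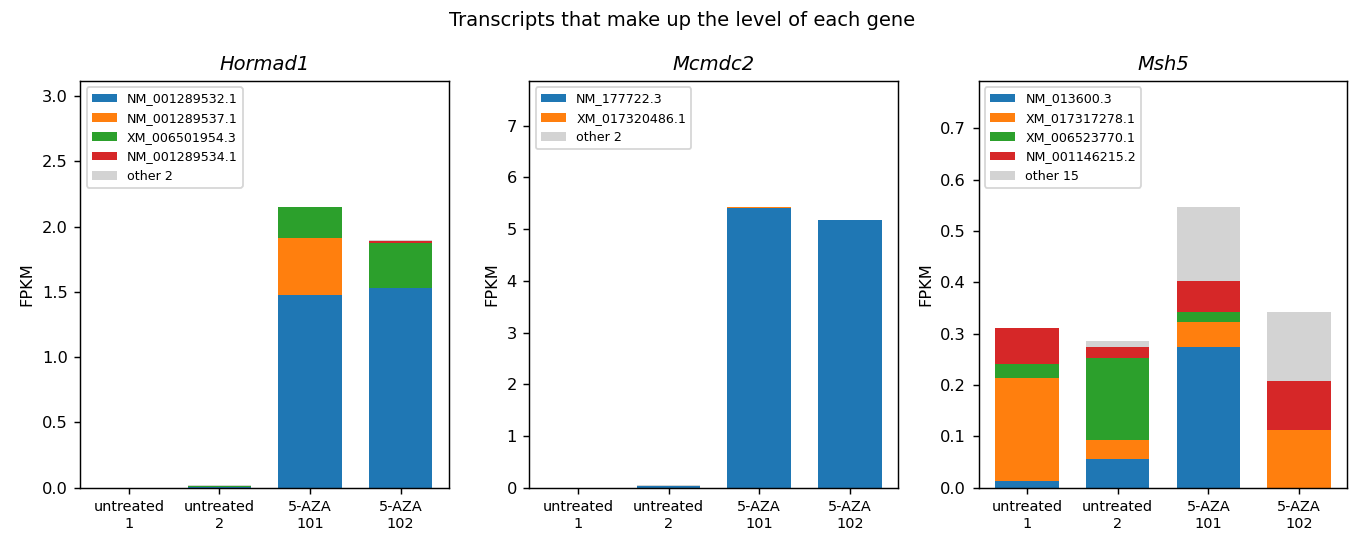
Bars stack the FPKM of the transcripts of Hormad1, Mcmdc2 and Msh5 in each of the 4 samples, with a separate scale for each gene and the lowest transcripts joined in grey. A single transcript fills nearly all of the Mcmdc2 bars, NM_001289532.1 fills most of the 5-AZA bars of Hormad1, and the bars of Msh5 change in composition between replicates of the same group.

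Because 5-AZA acts on DNA methylation, which in mammals lies on cytosines of CG dinucleotides, the CG content of the promoters was read from RefSeq sequence of GRCm38.p6. No methylation was measured in the files used here. The window ran from 250 bases before to 50 bases after the start site, and 6 of the 8 genes had an entry, all but Mcmdc2 and Spo11. The sequences of Hormad1, Dmc1 and Msh4 are shown 5′ to 3′ on the strand of the gene, with each CG in capitals. Hormad1 is shown as the gene that was called higher. Dmc1, which was not tested, and Msh4, which was not called, are shown as genes with dense and sparse CG.
Hormad1, chr3:95559427-95559726, plus strand: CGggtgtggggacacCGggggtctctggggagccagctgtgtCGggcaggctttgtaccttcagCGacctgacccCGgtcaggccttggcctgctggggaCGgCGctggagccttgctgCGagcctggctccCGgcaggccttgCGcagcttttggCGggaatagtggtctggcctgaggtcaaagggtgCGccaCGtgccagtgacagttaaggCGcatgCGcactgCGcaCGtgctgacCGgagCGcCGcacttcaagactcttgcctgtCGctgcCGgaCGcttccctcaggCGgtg
Dmc1, chr15:79605060-79605359, minus strand: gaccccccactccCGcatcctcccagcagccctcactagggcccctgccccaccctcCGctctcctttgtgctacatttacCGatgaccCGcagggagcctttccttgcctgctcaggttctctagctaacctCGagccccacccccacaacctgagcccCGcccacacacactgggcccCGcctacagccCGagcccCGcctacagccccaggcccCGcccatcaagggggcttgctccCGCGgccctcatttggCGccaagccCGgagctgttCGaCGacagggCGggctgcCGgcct
Msh4, chr3:153904842-153905141, minus strand: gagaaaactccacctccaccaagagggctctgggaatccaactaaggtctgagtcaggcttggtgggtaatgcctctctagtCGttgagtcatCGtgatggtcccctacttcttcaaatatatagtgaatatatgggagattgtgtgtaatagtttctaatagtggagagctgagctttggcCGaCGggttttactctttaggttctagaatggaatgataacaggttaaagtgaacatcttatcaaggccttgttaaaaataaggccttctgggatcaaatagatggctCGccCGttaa

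The Hormad1 window held 24 CG dinucleotides, which placed it at percentile 80.8 of the 32851 mouse promoters in the table, with ties given their mean rank. Msh5 held 27, Dmc1 18, Hormad2 16, Mei1 8 and Msh4 6, against a median of 7 over all promoters. The ratio of observed to expected CG, which corrects for base composition, was 0.713 for Hormad1, 0.855 for Msh5, 0.571 for Dmc1 and 0.436 for Msh4, with a median of 0.384 over all promoters. Among these 6 windows Msh5 had the most CG and was not called, and Dmc1 was near 0 in every sample and was not tested. A link between CG content and the 5-AZA levels was not tested. The E-box CACGTG, which reads the same on both strands and occurs in 7.15% of all promoters, was found in Hormad1 alone of the 6, starting 57 and 20 bases before the start site. The E2F motif GCGGGA, or TCCCGC on the other strand, occurs in 20.0% of promoters and was found in the Hormad1, Dmc1 and Msh5 windows. The cyclic AMP element TGACGTCA, found in 1.79% of promoters, was in none of the 6. No match overlapped another. Of the 6 start sites in the table, that of Hormad1 lies at the edge of the annotated span of its gene, while those of Dmc1, Hormad2, Mei1, Msh4 and Msh5 lie inside it. The Mei1 window begins at base 82082226, while its gene span begins at 82070074. The Msh4 window, on the minus strand, ends at base 153905141, while its gene span ends at 153906138. The Msh5 window, also on the minus strand, ends at base 35046872, while its gene span ends at 35046997. The windows of Mei1, Msh4 and Msh5 may thus not hold the promoter at the 5′ end of the gene. These matches describe letters in the window and not bound sites.

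**Figure D3:**
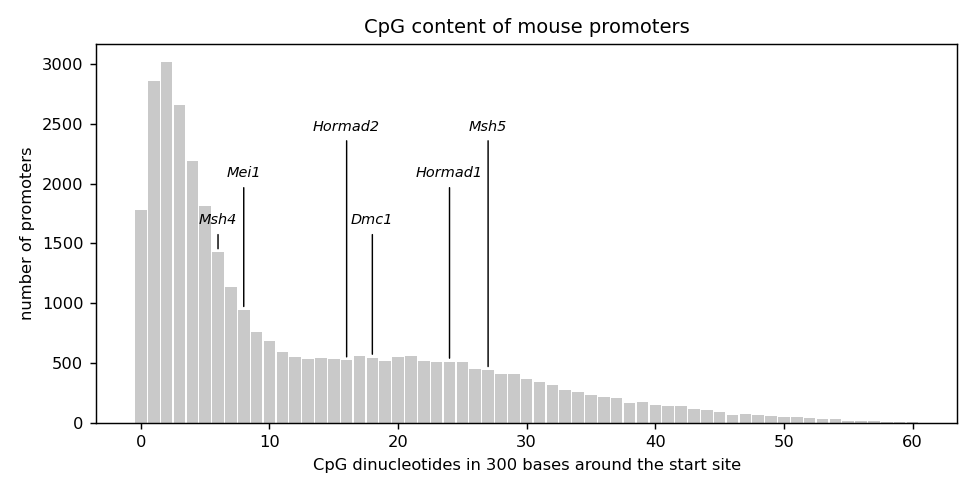
Grey bars count the promoters in the mouse table (vertical axis) by the number of CG dinucleotides in their 300 bases (horizontal axis), and lines mark the 6 genes with an entry. Msh5 with 27, Hormad1 with 24, Dmc1 with 18 and Hormad2 with 16 lie in the long right part of the distribution, and Mei1 with 8 and Msh4 with 6 lie near its median of 7.

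Mcmdc2 encodes a relative of the replicative helicase subunits that acts in the repair of meiotic breaks, and lies at chr1:9906157-9943606. It was at 5.68e-08 FPKM, a value that carries no measurable level, in untreated replicate 1 and at 0.0463 FPKM in untreated replicate 2. In 5-AZA replicates 101 and 102 it was at 5.42 and 5.18 FPKM. Both 5-AZA samples lay far above both untreated samples. The mean was 0.0231 ± 0.0327 FPKM (SD, n = 2) in untreated and 5.30 ± 0.168 FPKM (SD, n = 2) in 5-AZA samples. The log2 difference of 5.48 (SE 0.30, limma adjusted p = 4.81e-06) was the largest of the 8 genes and stood at rank 99 of the genes tested. Of its 4 transcripts only NM_177722.3 reached 0.1 FPKM, and it held 99.7% of the Mcmdc2 sum in both 5-AZA samples. NM_177722.3 was also called as a single transcript (log2 difference 5.50, limma adjusted p = 0.00895). The calls of NM_177722.3 and of the Hormad1 transcript NM_001289532.1 were lost without a limit on low values and when any 1 of the 4 samples was left out, with limma adjusted p between 0.0531 and 0.237. Over all transcripts the higher calls also went from 745 to 0 without a limit, to 175 and 103 without untreated replicates 1 and 2, and to 0 without either 5-AZA replicate. The calls of the summed genes held under all 13 alternatives tried. A lncRNA on the minus strand overlaps the 3′ end of Mcmdc2 and was also higher in both 5-AZA samples, and whether counting used strand is not given, so the reads they share cannot be told apart.

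Mcmdc2 was the only one of the 8 genes listed as a circRNA host. A circRNA is a closed RNA loop, counted here by the reads that cross its back-spliced junction and given as RPM, which scales these reads to all reads of the sample. Both loops lay on the plus strand of chromosome 1, were of the sense-overlapping type and had no circBase identifier. They shared the end at base 9937105 and differed by 1415 bases at the start, with circRNA_0009 starting at 9919020 and circRNA_0010 at 9920435. The spliced lengths listed were 1170 bases for circRNA_0009 and 1044 bases for circRNA_0010.

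circRNA_0010 was listed at 0 in both untreated samples and at 0.258 and 0.181 RPM in the 5-AZA samples, which stand for 24 and 17 reads. The shorter loop was thus read in both 5-AZA samples and listed in neither untreated sample. circRNA_0009 was likewise at 0 in both untreated samples, and at 0.0646 and 0.0639 RPM, 6 and 6 reads, in the 5-AZA samples. The fewest reads listed for any circRNA was 2, so a value of 0 can stand for a single read. Neither loop passed the test, each with a limma adjusted p = 0.119, and 0% of the 1360 circRNAs tested were called higher by limma. At an unadjusted p below 0.05 there were 91 higher and 160 lower circRNAs, and both loops were among the 91. A circRNA needed a value above 0 in 2 samples, and both loops met this limit only through the 5-AZA samples. Their place among the 91 thus partly follows from that limit. By mean RPM after 5-AZA, circRNA_0010 ranked 2 and circRNA_0009 ranked 13 among the 89 circRNAs that were at 0 in both untreated samples and above 0 in both 5-AZA samples, which were 6.54% of those tested. The opposite pattern was held by 129 circRNAs. Junction reads over all circRNAs numbered 13282 and 13388 in the untreated samples and 10905 and 10448 in the 5-AZA samples, while total reads lay between 92903364 and 93920706, so the Mcmdc2 loops were read in the samples with fewer junction reads.

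**Figure D4:**
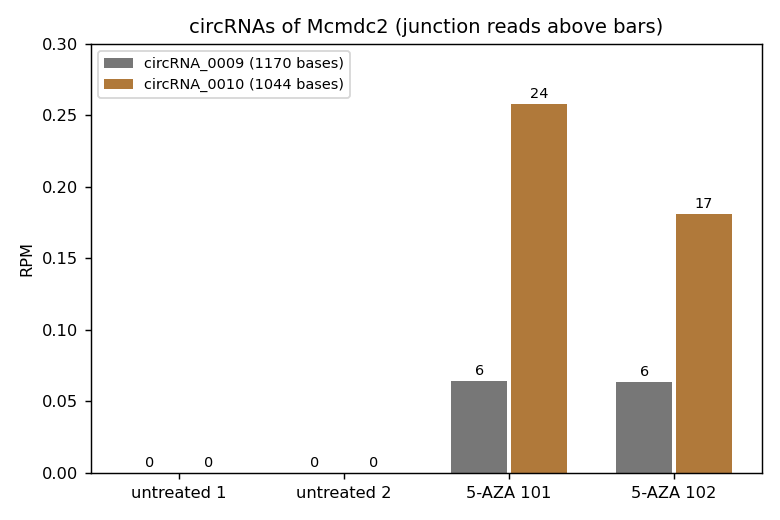
Bars give the RPM of the 2 Mcmdc2 circRNAs in each sample, with the number of junction reads above each bar. Both are at 0 in the untreated samples, and circRNA_0010 stands above circRNA_0009 in both 5-AZA samples, with 24 and 17 reads against 6 and 6.

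Of the genes that make the breaks, Spo11, the enzyme that cuts the DNA, lies at chr2:172977379-172993576 and was listed at 0 in all 4 samples for each of its 10 transcripts. Mei1, needed for break formation, lies at chr15:82070074-82126817 and was at 0.0200 FPKM in 5-AZA replicate 101 and at 0 in the other 3 samples. Neither gene gave a level that could be compared between groups. FPKM keeps no read counts, so how many reads a value of 0 could hide is unknown.

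Of the genes of strand exchange and crossover formation, Dmc1, the meiosis-specific recombinase, lies at chr15:79561497-79605159. It was at 0.0162 FPKM in untreated replicate 1, at 0.0157 FPKM in 5-AZA replicate 101 and at 0 in the other 2 samples. The groups thus overlapped at a level near 0. Msh4 lies at chr3:153857141-153906138 and was at 0.142 and 0.0427 FPKM in the untreated samples against 0.125 and 0.145 FPKM in the 5-AZA samples. These values overlapped, and the log2 difference of 0.34 (SE 0.43) did not pass the test (limma adjusted p = 0.629). NM_031870.3 held between 92.8% and 100% of the Msh4 sum in the 4 samples.

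Msh5, the partner of Msh4, lies at chr17:35028605-35046997. It was at 0.311 and 0.286 FPKM in the untreated samples and at 0.546 and 0.343 FPKM in the 5-AZA samples. Both 5-AZA values lay above both untreated values, though replicate 102 only slightly. The log2 difference was 0.43 (SE 0.34), which did not pass the test (limma adjusted p = 0.418). Its 19 transcripts did not keep their shares. XM_017317278.1 led in untreated replicate 1 with 64.3% of the sum and in 5-AZA replicate 102 with 32.8%. XM_006523770.1 led in untreated replicate 2 with 55.7%, and NM_013600.3 led in 5-AZA replicate 101 with 50.04%. For genes with many similar transcripts, the split of reads between them is an estimate, and no Msh5 transcript is described as changed.

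The other genes of the pathway, listed by role, held further genes that were called and others near 0. Of 9 partners in break formation and on the axes, 5 could be tested. The test called Rec114 and Tex15 higher and 0 lower, beside 13.1% higher and 1.32% lower over all genes tested. Both passed the limit on low values only through their 5-AZA values, so the count and the median of the genes tested partly follow from that limit. The median log2 difference was 0.94 over the 5, against 0.05 over all genes tested, and became 0.19 under quantile normalization, 0.42 with a pseudocount of 1 FPKM and 0.54 over all 9 without a limit. Rec114, which works with Mei4 and Iho1 to start breaks, was listed at 0 in both untreated samples and at 0.819 and 1.98 FPKM in the 5-AZA samples, and was called higher (limma adjusted p = 0.000317). Tex15, needed to load recombinases on breaks, was at 0.0526 and 0.0273 FPKM in untreated and 0.739 and 0.879 FPKM in 5-AZA samples, and rose by a log2 difference of 2.70 (limma adjusted p = 0.000559). Of the direct partners of SPO11 that stayed below the limit, Mei4 had no measurable level in any sample. Iho1, listed as Ccdc36, was at 0.185 and 0.0738 FPKM in the 5-AZA samples and without a measurable level in the untreated samples. Top6bl, listed as Gm960, was at 0.0573 and 0.0438 FPKM in untreated and at 0.191 and 0.0647 FPKM in 5-AZA samples. Prdm9, the histone methyltransferase that places break sites, had a log2 difference of 0.94 that did not pass the test (limma adjusted p = 0.0558). Trip13, the ATPase that takes HORMA proteins off the axes, was between 3.03 and 3.57 FPKM in all 4 samples, with a log2 difference of 0.08.

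Of 15 partners in strand exchange and crossover formation, 7 could be tested. The test called 3 higher and 0 lower, beside 13.1% higher and 1.32% lower over all genes tested. Of the 3, Tex11 passed the limit only through its 5-AZA values. At an unadjusted limma p below 0.05, 3 were higher and 2 lower, beside 4684 of all 13199 genes tested, in either direction. The median log2 difference was 0.35. Ccnb1ip1, a ligase needed for crossovers, was at 0.232 and 0.113 FPKM in untreated and 5.27 and 5.11 FPKM in 5-AZA samples, with a log2 difference of 4.31 (limma adjusted p = 1.21e-05). Hsf2bp, whose product binds BRCA2, was at 0.165 and 0.0496 FPKM in untreated and 2.02 and 2.74 FPKM in 5-AZA samples, with a log2 difference of 3.62 (limma adjusted p = 0.000128). Tex11, an X-linked gene of crossover formation, was at 0.0111 and 0.0261 FPKM in untreated and 0.783 and 0.588 FPKM in 5-AZA samples, with a log2 difference of 2.72 (limma adjusted p = 0.000715). In each of these 3 genes both 5-AZA values lay above both untreated values, as in 36.8% of all genes tested. Without 5-AZA replicate 101 or 102, Ccnb1ip1 (limma adjusted p = 0.0525 and 0.0530) and Hsf2bp (limma adjusted p = 0.0747 and 0.0856) were no longer called. Hsf2bp was also not called from its highest transcript alone (limma adjusted p = 0.364), could not be tested on curated transcripts, and was called in 9 of 13 alternatives. The median of the list turned to -0.44 under quantile normalization. Under that setting 3 of its genes were called higher and 1 lower, beside 1041 higher and 886 lower over all genes. With a pseudocount of 1 FPKM, the log2 differences of Tex11 (0.72) and of Tex15 above (0.80) were under 2-fold. A circRNA of Hsf2bp, circRNA_1833, was at 0 in both untreated samples and had 5 and 3 reads in the 5-AZA samples, and was not called (limma adjusted p = 0.137). Mnd1 and Psmc3ip, whose products act as a pair on DMC1, had log2 differences of -0.53 (limma adjusted p = 0.0749) and 0.00. Mlh3, named after its values were seen, had a log2 difference of -0.55 (limma adjusted p = 0.110). Both 5-AZA values of Mnd1 and of Mlh3 lay below both untreated values, as in 25.4% of all genes tested. Meiob, which binds single-stranded DNA at breaks, was listed at 0 in all 4 samples, and the helicase gene Hfm1 was at 0.00619 FPKM in 5-AZA replicate 102 and at 0 elsewhere.

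Recombination genes that somatic cells also use all passed the limit on low values, and none was called. Of 26 genes of general homologous recombination, all 26 were tested, and 0 were called higher and 0 lower by limma. At an unadjusted limma p below 0.05, 3 were higher and 1 lower, beside 4684 of all 13199 genes tested, in either direction. The median log2 difference of the 26 was -0.01. By the adjusted p alone, Xrcc3 (log2 difference 0.79, limma adjusted p = 0.0468) and Sfr1 (log2 difference -0.33, limma adjusted p = 0.0309) passed, but their changes were under 2-fold. Xrcc3 and Sfr1 were named after their values were seen. The MCM genes Mcm8 and Mcm9, which act in recombination, had log2 differences of 0.60 and -0.20 and were not called.

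The relatives of the 8 genes by protein family were not called either. Of 6 mismatch repair genes, which include the relatives of Msh4 and Msh5, 6 were tested, 0 were called by limma and 0 had an unadjusted p below 0.05, with a median log2 difference of 0.02, which turned to -0.26 under quantile normalization. Msh6, a mismatch repair gene, had a log2 difference of 0.10 (limma adjusted p = 0.680). Of 4 other HORMA domain genes 0 were called by limma, while 1 was higher and 1 was lower by an unadjusted p below 0.05. The lower gene, Mad2l1 (log2 difference -0.56, limma adjusted p = 0.0343), also passed by the adjusted p alone, but its change was under 2-fold. Mad2l1 was named after its values were seen. Of the 6 replicative MCM genes, the relatives of Mcmdc2, 0 were called by limma, 2 were lower at an unadjusted p below 0.05, and the median log2 difference was -0.24. The counts at an unadjusted p stand beside 4684 of all 13199 genes tested that had such a p, in either direction. Mcm2 had a log2 difference of -0.20 (limma adjusted p = 0.383). With other settings, 1 gene of general recombination was called lower under quantile normalization and 1 mismatch repair gene was called higher from its highest transcript alone.

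**Figure D5:**
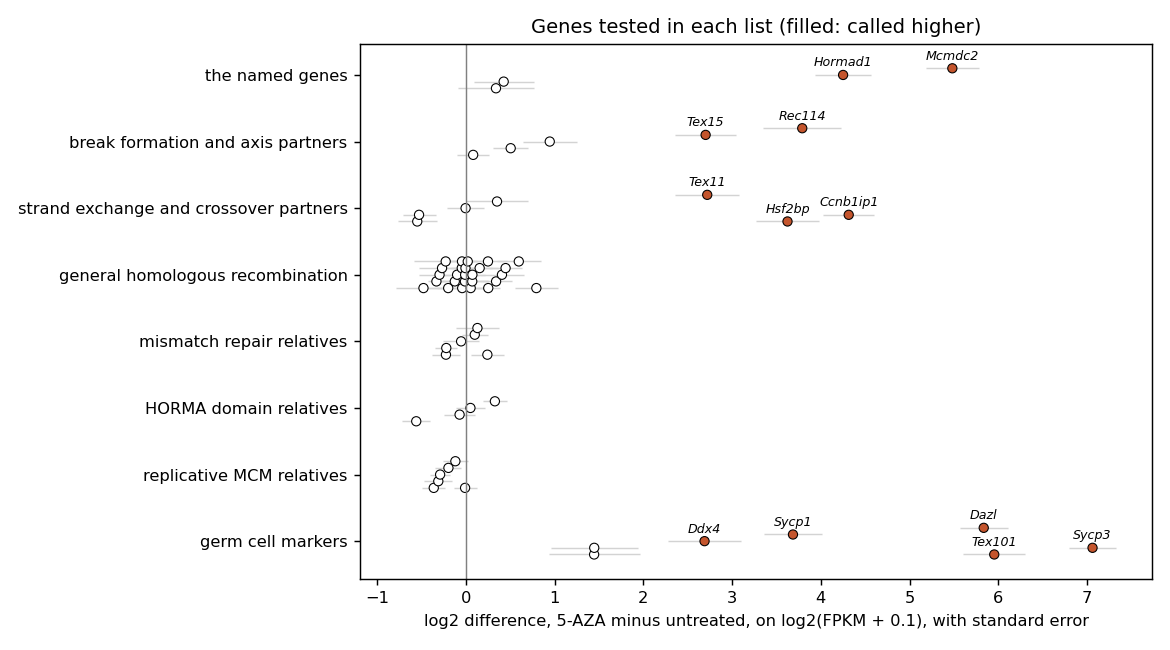
Each point is the log2 difference, 5-AZA minus untreated on log2(FPKM + 0.1), of a gene tested in the list named on the vertical axis, with its standard error as a grey line and filled where called higher, and the top line holds Hormad1, Mcmdc2, Msh4 and Msh5. Filled points stand at 2.69 or more in the meiotic and germ cell lists, and the lists of general recombination, mismatch repair, HORMA and MCM genes lie between -0.56 and 0.79 with no filled point.

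In the gene annotation of the files, meiotic cell cycle was the term that all 8 genes carried. Of the 152 other genes with this term, 85 were tested and 29 of these passed as higher, 0 as lower, around a median log2 difference of 0.13. Of the 24 other genes of reciprocal meiotic recombination, 20 were tested, 4 were called higher, among them Ccnb1ip1 and Tex11, and 0 lower, beside 13.1% called higher over all genes tested. The term synaptonemal complex, carried by Hormad1, Hormad2, Msh4 and Msh5, had 21 other genes in the test, and 10 passed as higher, 0 as lower. Synaptonemal complex assembly, carried by Hormad1, Mcmdc2 and Spo11, had 16 others in the test, and 8 passed as higher, 0 as lower. DNA repair, carried by Dmc1, Mcmdc2 and Msh5, gave 328 other genes tested, of which 4 were called higher, Tex15 among them, and 0 lower. These terms were picked after their values were seen. Some of the genes called, among them Sycp1, Sycp3, Tex11 and Tex15, passed the limit on low values only through their 5-AZA values. The counts of higher genes in the terms that hold them thus partly follow from that limit.

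Among markers of other cell types, those of germ cells, skeletal muscle and adipocytes held most of the genes called. Of 14 germ cell markers, 7 were tested, all passing the limit only through their 5-AZA values. Of these 7, 5 were called higher, beside 13.1% over all genes tested. Sycp3, a protein of the chromosome axes, led them, at 0 and 0.0426 FPKM in untreated and 14.3 and 17.5 FPKM in 5-AZA samples. Dazl, an RNA-binding protein of germ cells, was listed at 0 in both untreated samples and at 5.48 and 5.74 FPKM in the 5-AZA samples. Piwil1, Tnp1, Prm1, Acrv1 and Pgk2, which mark later stages of sperm formation, were listed at 0 in all 4 samples. The summed level of the germ cell list was 0.0574 to 0.138 FPKM in untreated and 27.2 to 35.4 FPKM in 5-AZA samples. The skeletal muscle list (6 of 6 called higher, sums of 0.796 to 0.976 FPKM against 639 to 986 FPKM) and the adipocyte list (4 of 4 called higher, 11.8 to 28.7 FPKM against 1008 to 1379 FPKM) were higher in the same samples. Myod1, Myog, Ckm and Myh3 of the muscle list and Cidec of the adipocyte list also passed the limit only through their 5-AZA values. Without 5-AZA replicate 101 or without replicate 102, 1 of the 4 adipocyte genes was called. The immune list summed to at most 0.138 FPKM, with 3 of its 5 genes at 0 in all samples. Of 6 mesenchymal fibroblast markers, all were measured in every sample, with sums of 3698 to 3776 FPKM in untreated and 2866 to 3187 FPKM in 5-AZA samples, and 1 (Thy1) was called higher. By the adjusted p alone Vim (log2 difference -0.87, limma adjusted p = 0.00119), Col1a1 (-0.52, limma adjusted p = 0.0402) and Col1a2 (-0.37, limma adjusted p = 0.0381) were lower and Col3a1 (0.78, limma adjusted p = 0.000700) was higher, with changes under 2-fold. Of 8 proliferation genes 0 were called by limma, with a median log2 difference of -0.19. At an unadjusted limma p below 0.05, 3 were lower, beside 4684 of all 13199 genes tested, in either direction. By the adjusted p alone Ccna2 (-0.49, limma adjusted p = 0.0295) was lower, with a change under 2-fold. The part of these cell types in the levels of Hormad1 and Mcmdc2 was not tested.

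The genes next to the 8 on the chromosome were read as well. Of 16 such neighbours, 12 were tested, 3 were called higher (Ctss beside Hormad1, Lif beside Hormad2 and Tcf24 beside Mcmdc2) and 0 lower, beside 13.1% and 1.32% over all genes tested. Ctss, Lif and Tcf24 passed the limit on low values only through their 5-AZA values, so this count partly follows from that limit. Ctss, a lysosomal protease gene, was listed at 0 in both untreated samples and at 0.640 and 0.349 FPKM in the 5-AZA samples. Tcf24 was at 0.00840 and 0 FPKM in untreated and 0.239 and 0.325 FPKM in 5-AZA samples (log2 difference 1.87, limma adjusted p = 0.00931). The neighbours on the other side were not called, with log2 differences of -0.06 for Golph3l beside Hormad1 and 0.15 for Sgk3 beside Mcmdc2.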

How the data were processed

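RNA from 2 untreated and 2 5-AZA samples was analysed. The authors removed ribosomal RNA and prepared stranded libraries. The submitters' processing notes name Trimmomatic, HISAT2, Bowtie2 2.2.9, eXpress 1.5.1 and the build mm9, and whether counting used strand is not given in the sources used here. The mRNA and lncRNA values were deposited as FPKM per transcript, and the circRNA values as RPM. Of 2142 circRNA host transcripts, 99.3% lay within 1000 bases of the GRCm38.p6 span of their gene, so circRNA coordinates were read as GRCm38. Gene positions and promoters are from RefSeq on GRCm38.p6.

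Transcripts were summed per gene. Log2 values, with a pseudocount of 0.1 FPKM or the smallest RPM above 0 (0.0213), went into limma 3.58.1, run in R 4.3.3 with lmFit and a trended eBayes, and p-values were adjusted by the Benjamini-Hochberg method over all genes, transcripts or circRNAs tested. Genes and transcripts needed a mean of 0.1 FPKM over the 4 samples, and circRNAs a value above 0 in 2 samples. The method was run on simulated data with large known changes, where most had to be found in the right direction. No limit was set there on false calls, so that run does not show how often calls are false. The files were read in R and with pandas 2.3.3, and figures were drawn with matplotlib 3.10.9. FPKM gives no counts, so depth per gene is unknown. RPM values were whole multiples of a step within 0.01 reads, which gave the reads quoted, and these cover counting error only.

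The text names all 8 genes, their transcripts at 0.1 FPKM or more (those of Msh5 by their lead), up to 5 called genes of each list, and direct partners and paralogs fixed by name. The members and lists were chosen with earlier results of these data known. Pseudocounts, limits, scalings, transcript choices and the omission of each sample were varied. Some results on genes of these lists are not reported here.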

Additional observations from a re-analysis of the deposited data

Results flagged for a closer look

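The lncRNA values, which entered no test, held a signal at Mcmdc2. NONMMUT077319.1, listed as antisense on the minus strand of chromosome 1 from 9942080 to 9944147, with 375 bases in 5 exons, overlaps the 3′ end of Mcmdc2. It was at 0.198 and 0.0232 FPKM in the untreated samples and at 4.69 and 4.52 FPKM in the 5-AZA samples, a mean of 4.60 FPKM after 5-AZA. The difference was not tested, and NONMMUT077319.1 was named after its values were seen. Of the other minus-strand lncRNAs there, some were higher and some overlapped between the groups. NONMMUT000125.2, from 9942024 to 9944103, was lower without overlap, at 0.979 and 2.53 FPKM in untreated and 0.251 and 0.503 FPKM in 5-AZA samples. Over the 8 minus-strand lncRNAs at Mcmdc2 with 0.1 FPKM or more in any sample, summed levels were 26.9 and 30.2 FPKM in untreated and 33.03 and 34.3 FPKM in 5-AZA samples. Whether counting used strand is not given in the sources used here, so reads of Mcmdc2 and of NONMMUT077319.1 cannot be told apart where they overlap.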

How the results depend on the processing

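Hormad1 (log2 difference 1.58 to 6.78) and Mcmdc2 (2.62 to 7.81) were called higher under all 13 alternatives. Of the 60 transcripts of the 8 genes, 2 were called by limma, against 0 without a limit on low values and 0 to 0 when a sample was left out. Over all transcripts, 745 were called higher, against 0 without a limit and 0 to 175 when a sample was left out. Quantile normalization gave a log2 difference of -0.96 for Msh4, -0.78 for Msh5 and -0.093 for NM_031870.3. With a sample left out, Msh4 ranged from -0.043 (without untreated replicate 2) to 0.72 and NM_031870.3 from -0.074 (without untreated replicate 2) to 0.69. The cause was not tested. None of these passed the test. Neither Mcmdc2 circRNA was called under any of 4 alternatives (limma adjusted p of 0.141 to 0.696), and without a 5-AZA replicate they were in too few samples to test. When a circRNA needed a value in just 1 sample, 2 passed as higher and 1 as lower, none of Mcmdc2. Over all genes, 1724 were called higher, against 875 with a pseudocount of 1 FPKM, 1041 under quantile normalization and 925 and 733 without 5-AZA replicates 101 and 102, and 174 were called lower, against 86, 886, 52 and 70, and 83 without a limit on low values. With 1 sample left out, the lone sample is assumed to vary like the other group.

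No paired analysis was made, since the groups share no replicate number and the labels do not say whether samples were paired. The planned edgeR test of circRNA reads was not run, since the smallest RPM is 2 reads and the values were not accepted as counts. Depth behind each FPKM is unknown, and 2 samples a group limit every result.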

Other observations

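Of the lncRNAs that overlap the other genes, all 9 at Hormad2, the 1 at Dmc1 and the 1 at Hormad1 were listed at 0 in all 4 samples. Of 2 at Msh5, 1 was at 0 and NONMMUT029396.2 had no measurable level, at 1.4e-27 FPKM or less. At Mcmdc2, 7 of 11 reached 1 FPKM in a sample.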
